A study of Mus musculus with 30 samples.

Results

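IL12 is a cytokine that turns stimulated CD8 T cells toward interferon-producing killer cells, and its effect was read here from RNA-seq counts of wild-type (WT) cells: 5 cultures with IL12 against 5 cultures without an added cytokine, 10 of the 30 libraries of the series. Every culture held naive CD8 T cells isolated by magnetic sorting from lymph nodes and spleens of mice of the C57BL/6 strain at 8 weeks of age. All were stimulated for 3 days in serum-free medium with plate-bound antibodies against CD3 and CD28 at 5 µg/ml each, and the IL12 cultures also held recombinant IL12 at 10 ng/ml. The other libraries were WT cells with TGFB1 at 0.5 ng/ml and cells labelled Furin KO in the same 3 conditions, 5 each. How the deletion was made is not given in the sources used here. Library titles carry the numbers 62, 67, 71, 72 and 75 in each WT condition. The labels give number 62 as male and the other 4 as female. Values below are given in that order of numbers, in CPM (the gene's counts scaled to a common library total, after TMM scaling). The labels do not say whether the 5 cultures of a group came from separate animals, so p-values measure the spread between these samples, which may be in part technical.

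IL12 binds a receptor made of IL12RB1 and IL12RB2, and the kinases JAK2 and TYK2 then activate the transcription factor STAT4. In T cells STAT4 and the T-box factor T-bet (Tbx21) are known to drive Ifng, the gene of interferon gamma, along with granzymes and the receptor for IL18. Interferon gamma in turn acts through IRF1, among other factors, on a large group of defence genes.

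The cells carried the markers of their label. The 14 CD8 T cell markers summed to 5795 to 6348 CPM without cytokine and 5689 to 6155 CPM with IL12, and 0 of 14 were called by edgeR (1 lower by DESeq2 and by limma-voom). Cd4 was at most 1.18 CPM. Total counts were 8362026 to 9875726 per library without cytokine and 7306151 to 10406630 with IL12. The fit across all 30 libraries tested 11718 genes, and “called” stands for an adjusted p below 0.05 by edgeR.

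Ifng, Furin, Il1rl1 and P2rx3 were among the clearest rises with IL12, and the interferon-inducible GTPase genes Irgm1 and Iigp1 fell. In all, 2209 of 11718 genes were called (18.9% of those tested), 1236 higher (10.5%) and 973 lower (8.3%). The rises were larger: 416 genes rose and 93 fell at least 2-fold, 162 rose and 12 fell at least 4-fold, and 79 rose at least 8-fold. All 5 IL12 libraries lay above all 5 controls for 779 genes (6.65% of those tested) and below them for 681 (5.81%). Counts for the gene lists below are to be read against these shares. The median log2 fold change over all genes tested was 0.01. With a minimum fold change of 1.5 built into the test, 239 genes were called higher and 25 lower. In bulk RNA, fewer cells of a type and less RNA per cell cannot be told apart.

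**Figure D1:**
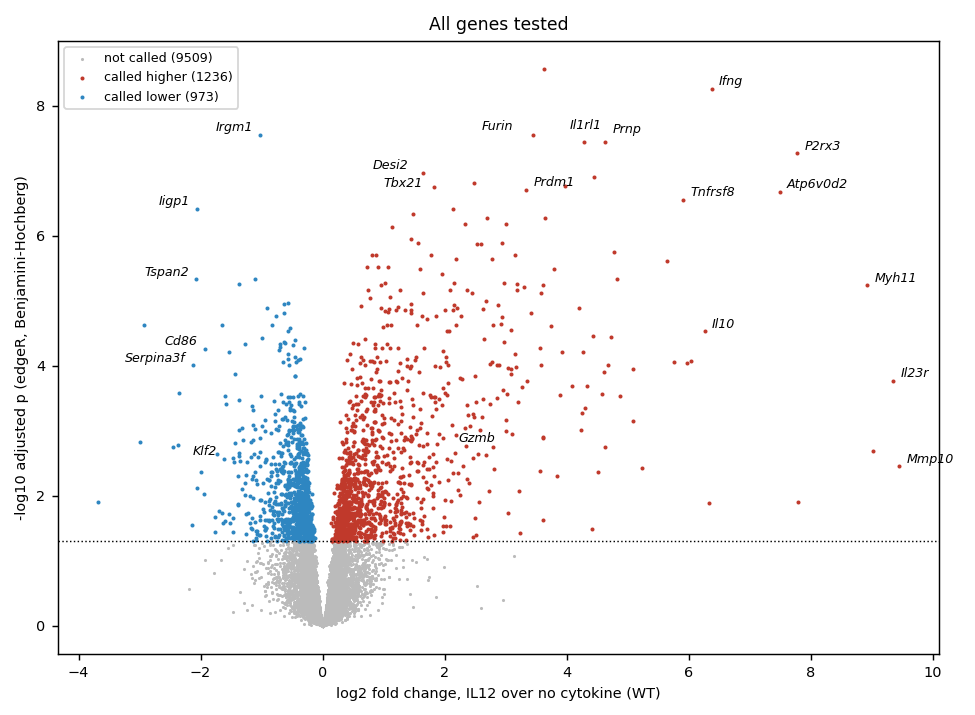
Each point is 1 of the 11718 genes tested, with the log2 fold change of IL12 over no cytokine in WT on the x axis and -log10 of the adjusted p on the y axis (dotted line, 0.05). The 1236 red points (called higher) reach further from 0 than the 973 blue points (called lower).

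The 5 IL12 libraries did not respond to the same extent. On the first principal component of the 10 WT libraries (51.5% of the variance) the controls lay between -31.8 and -24.1. IL12 libraries 62 and 67 lay at 1.78 and 4.37, and IL12 libraries 71, 72 and 75 at 32.8, 49.1 and 50.7. Over the genes called higher, the median log2 ratio to the mean of the controls was 0.39, 0.42, 0.74, 0.87 and 0.84 in libraries 62, 67, 71, 72 and 75, and over the genes called lower it was -0.24, -0.25, -0.38, -0.59 and -0.60. Libraries 62 and 67 were the 2 lowest IL12 libraries for 785 of the 1236 genes called higher (63.5%) and for 21.9% of all genes tested. They were the 2 highest for 537 of the 973 genes called lower (55.2%), against 21.6% of all genes tested. The called genes were picked with these same libraries, so these medians and shares are in part set by that choice. The count of calls moved with single libraries: 1324 genes were called without IL12 library 72, 1462 without IL12 library 75, 2553 without IL12 library 67 and 2727 without IL12 library 62. Without control library 71, 606 genes were called lower. In all 10 fits that leave out 1 of these libraries, 684 genes were called higher and 436 lower. With 62 and 67 as the only IL12 libraries 169 genes were called (119 higher, 50 lower), and with 71, 72 and 75 as the only ones 3575 (1936 higher, 1639 lower). In both of these fits 98 genes were called higher and 37 lower. They hold 2 and 3 IL12 libraries, so their power to call a gene differs. A call lost with 62 and 67 alone does not show that the gene was unchanged there. Library 62 is the 1 male library of each group, while 67 is female like the remaining 3.

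**Figure D2:**
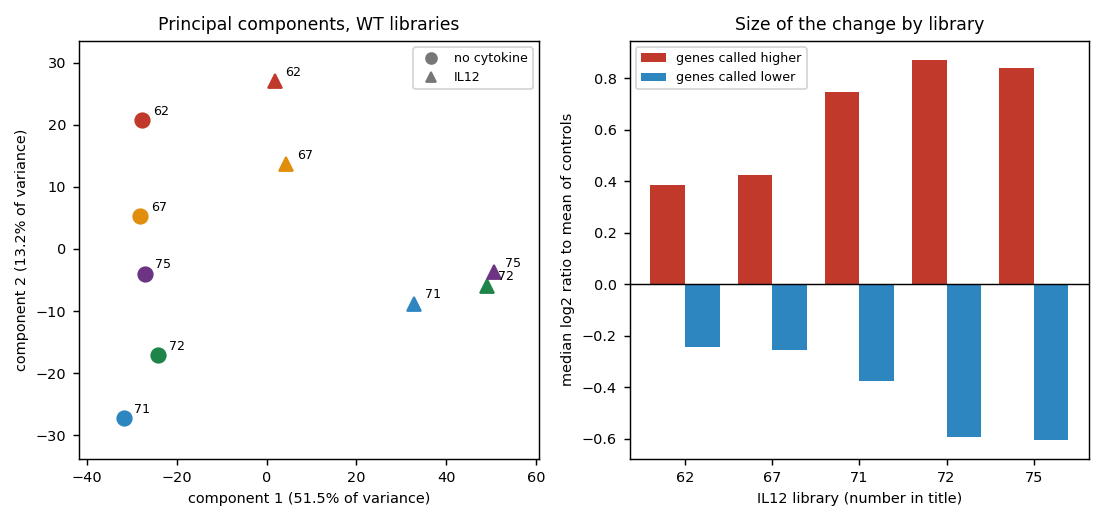
Left, the first 2 principal components (51.5% and 13.2% of the variance) of the 10 WT libraries, circles without cytokine and triangles with IL12, each with its number. Right, the median log2 ratio of each IL12 library to the mean of the controls over genes called higher (red) and lower (blue), where libraries 62 and 67 have the shortest bars.

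Ifng was among the clearest rises. It is the gene of the cytokine that activates macrophages and antigen presentation (ENSMUSG00000055170, chromosome 10, 118441046 to 118445892 in GRCm38). It stood at 11.8, 13.8, 5.65, 7.06 and 9.31 CPM without cytokine and at 276, 302, 751, 1370 and 1282 CPM with IL12 (log2 fold change 6.37 ± 0.53 SE, adjusted p = 5.45e-09). The groups were far apart, and libraries 62 and 67 lay below 71, 72 and 75. Il12rb2, the inducible signalling chain of the IL12 receptor (ENSMUSG00000018341, chromosome 6, 67291318 to 67376188 in GRCm38), stood at 96.5, 101, 114, 121 and 145 CPM without cytokine and at 167, 179, 397, 367 and 302 CPM with IL12 (log2 fold change 1.29 ± 0.26 SE, adjusted p = 7.18e-04). All IL12 libraries were above all controls, with 62 and 67 only slightly so.

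The bases before the starts of Ifng, Il12rb2 and Irf1 are shown because these genes stand at successive points of the IL12 and interferon path, and the window before the first listed start of each held the palindrome TTCNNNGAA, the core of sites that STAT factors bind. They are the 250 bases upstream of the start from the RefSeq table (GRCm38.p6), 5′ to 3′ on the gene's strand: Ifng at chr10:118440796-118441045 (plus strand), Il12rb2 at chr6:67376189-67376438 (minus strand) and Irf1 at chr11:53769764-53770013 (plus strand). Capitals mark the bases that match TTCNNNGAA. The pattern is the same on both strands, while the 3 bases at its centre need not be.
Ifng: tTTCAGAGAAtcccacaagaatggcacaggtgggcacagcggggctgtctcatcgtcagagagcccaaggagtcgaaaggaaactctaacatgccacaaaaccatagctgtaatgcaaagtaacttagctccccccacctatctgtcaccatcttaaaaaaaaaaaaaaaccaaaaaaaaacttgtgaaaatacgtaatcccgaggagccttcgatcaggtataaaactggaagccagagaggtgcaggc
Il12rb2: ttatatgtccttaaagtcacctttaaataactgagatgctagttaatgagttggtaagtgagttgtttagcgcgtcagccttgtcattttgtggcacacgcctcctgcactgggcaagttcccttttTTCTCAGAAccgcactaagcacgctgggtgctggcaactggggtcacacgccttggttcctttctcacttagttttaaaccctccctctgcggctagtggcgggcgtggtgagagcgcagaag
Irf1: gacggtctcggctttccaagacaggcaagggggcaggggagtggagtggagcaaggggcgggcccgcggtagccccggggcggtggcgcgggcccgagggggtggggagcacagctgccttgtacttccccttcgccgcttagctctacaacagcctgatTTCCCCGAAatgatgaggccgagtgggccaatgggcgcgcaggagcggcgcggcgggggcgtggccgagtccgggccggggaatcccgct
The first base of the palindrome lay at position -249 in Ifng, -123 in Il12rb2 and -90 in Irf1, counted from that start. A second start listed for Irf1 has a window (chr11:53770223-53770472) without the palindrome. Of all 27025 genes with a window in the table, 8.13% held it. The windows of Socs1 and Furin did not hold these letters. A match is a description of the sequence and not a measured binding site. A comparison of its share between called genes and others is void, since 957 of the 1236 genes called higher and 8805 of the 11718 tested had a window, under the 80% set for such a check.

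The list of the IL12 receptor and its signal relay has 22 genes, all tested, and also holds receptor genes for IL18, IL23 and IL33. Of the 22 genes, 11 rose and 3 fell (median log2 fold change 0.29), and 8 rises had no overlap between groups. The rises include Il18r1, Il18rap, Il1rl1 and Il23r, so the count does not describe the IL12 receptor and its relay alone. Of all genes tested, 10.5% were called higher and 6.65% had all IL12 libraries above all controls. Both receptor chains for IL18, which acts together with IL12 on Ifng, rose. Il18r1 stood at 9.57, 11.4, 21.7, 13.2 and 6.58 CPM without cytokine and 48.2, 53.8, 135, 129 and 133 CPM with IL12 (log2 fold change 3.004 ± 0.34 SE, adjusted p = 6.46e-07). Il18rap, its neighbour on chromosome 1, went from 12.5, 13.3, 19.1, 17.1 and 7.15 CPM to 39.5, 35.5, 70.8, 61.1 and 61.5 CPM (log2 fold change 1.96 ± 0.25 SE, adjusted p = 3.81e-06). Both separated all IL12 libraries from all controls. Il1rl1, which encodes ST2, the receptor for IL33, rose from 1.11, 0.617, 2.12, 2.51 and 1.36 CPM to 21.5, 16.7, 39.7, 38.95 and 32.5 CPM (log2 fold change 4.29 ± 0.41 SE, adjusted p = 3.55e-08). The groups did not overlap, and 62 and 67 were the lowest of the IL12 libraries.

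Beside Il12rb2, the core members of the pathway were not called. Il12rb1, the shared receptor chain, averaged 49.5 ± 10.6 CPM without cytokine and 56.5 ± 4.62 CPM with IL12 (SD, n = 5 each) and did not pass the threshold (log2 fold change 0.19, adjusted p = 0.424). Stat4 averaged 84.5 ± 7.40 CPM without cytokine and 83.4 ± 16.8 CPM with IL12 (SD, n = 5 each) (-0.02, adjusted p = 0.954), and Jak2 and Tyk2 were not called either. Gadd45g and Gadd45b, adaptors that feed IL12 and T cell receptor signals into p38 kinase, rose by 3.19 ± 0.43 and 1.44 ± 0.37 on the log2 scale, and the kinase gene Map3k8 by 0.80 ± 0.16. Of the SOCS feedback inhibitors, Socs3 was called higher (log2 fold change 0.73 ± 0.26 SE, adjusted p = 0.0456), a call lost without any of control libraries 62, 67, 72 and 75 or IL12 libraries 71, 72 and 75 (adjusted p up to 0.138). Socs2 was called lower (-1.08 ± 0.36, adjusted p = 0.0351; up to 0.094 without 1 library), and Socs1 was not called (0.21 ± 0.17, adjusted p = 0.419). The 3 falls in this group, Pias1 and Socs2 among them, were down to 1 without control library 71, 72 or 75 or IL12 library 72 or 75.

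Of 38 transcription factors of effector and memory cells, all tested, 17 rose and 5 fell, with a median of 0.36. The master factor of type 1 responses, Tbx21, stood at 37.6, 34.2, 30.9, 36.5 and 32.1 CPM without cytokine and 83.8, 85.4, 141, 157 and 142 CPM with IL12 (log2 fold change 1.83 ± 0.19 SE, adjusted p = 1.74e-07). Prdm1, which encodes Blimp-1, a factor of terminal effector cells, went from 1.78, 1.75, 2.24, 0.957 and 2.16 CPM to 9.70, 12.7, 26.5, 17.4 and 23.4 CPM (log2 fold change 3.33 ± 0.35 SE, adjusted p = 1.94e-07). For both genes all 5 IL12 libraries were above the controls, and 62 and 67 were the lowest of them. Id2, an inhibitor of E proteins that supports effector cells, rose by 1.14 ± 0.13, Bhlhe40 by 1.57 ± 0.19 and Eomes, a T-box factor close to T-bet, by 1.16 ± 0.27. Batf3, an AP-1 family factor, rose from 20.02, 21.4, 17.4, 33.4 and 21.9 CPM to 57.5, 68.7, 136, 213 and 229 CPM (log2 fold change 2.63 ± 0.48 SE, adjusted p = 3.20e-04). The call for Batf3 does not hold with 62 and 67 as the only IL12 libraries (adjusted p = 0.195), although both lay above every control. The factors that fell were Klf2, Klf3, Tox, Gata3 and Tcf7. Without IL12 library 75, 11 factors were called higher and 3 lower, and 3 were called lower without control library 71 or IL12 library 72.

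Cytokine genes rose beside Ifng: of 36 listed, 24 were tested, 12 rose and 1 fell, with a median of 0.78. Il10, whose product dampens immune responses (ENSMUSG00000016529, chromosome 1, 131019845 to 131024974 in GRCm38), had 3 counts in the controls together and 299 with IL12. The ratio of summed counts was 93.8 (exact 95% interval 31.8 to 457, counting error only; adjusted p = 2.93e-05). By library it stood at 0.111, 0.103, 0.118, 0 and 0 CPM without cytokine and 0.547, 0.388, 12.2, 7.58 and 9.53 CPM with IL12. Libraries 71, 72 and 75 were far above all others, while 62 and 67 were only slightly above the controls. Il10 was not called with 62 and 67 as the only IL12 libraries (adjusted p = 0.303). Tnfsf4, the gene of the costimulatory ligand OX40L, rose (log2 fold change 1.23 ± 0.19 SE, adjusted p = 5.24e-05), as did Tnf (log2 fold change 0.73 ± 0.21 SE, adjusted p = 0.0133), and both were above all controls in all IL12 libraries. Il2 averaged 1.99 ± 1.77 CPM without cytokine and 7.02 ± 3.83 CPM with IL12 (SD, n = 5 each) (log2 fold change 1.80 ± 0.52 SE, adjusted p = 0.0153). The groups overlapped for Il2, and its call was lost without IL12 library 72 (adjusted p = 0.0814). Without control library 62, which held 5.12 CPM, the log2 fold change of Il2 was 2.52. The growth factor genes Il3, Csf2 and Csf1, the TNF relative Lta, Osm, Il1a and Inhba also rose, and Il16 fell (-0.54 ± 0.14). Without IL12 library 72, 7 cytokine genes were called higher and 2 lower, and 2 were called lower without IL12 library 67. Il4, Il5, Il13, Il17a, Il21 and Il22, cytokines of other T cell lineages, were below the count filter.

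Chemokine genes moved 1 way. Of 15 listed, 11 were tested, 8 rose and 0 fell, with a median of 1.41. Ligands of inflammatory chemokine receptors rose: Ccl3 went from 123, 101, 53.6, 62.5 and 78.8 CPM to 221, 226, 177, 248 and 292 CPM (log2 fold change 1.47 ± 0.29 SE, adjusted p = 6.13e-04) and Ccl4 averaged 80.9 ± 26.2 CPM without cytokine and 158 ± 27.4 CPM with IL12 (SD, n = 5 each) (log2 fold change 0.96 ± 0.27 SE, adjusted p = 0.0119). All IL12 libraries were above all controls for both, and IL12 libraries 62 and 67 were not set apart in level from the other 3 for either. For Ccl3 the controls numbered 62 and 67 were the highest of their group. Ccl5, another inflammatory chemokine, averaged 3.99 ± 0.733 CPM without cytokine and 10.6 ± 7.10 CPM with IL12 (SD, n = 5 each) (log2 fold change 1.41 ± 0.36 SE, adjusted p = 0.00658). It stood at 22.9 CPM in IL12 library 75 against 5.74 to 9.58 CPM in the other IL12 libraries, and without library 75 it was not called (adjusted p = 0.0623). Ccl9 rose from 11.5, 8.64, 4.24, 6.22 and 6.36 CPM to 29.9, 28.4, 24.95, 60.3 and 105 CPM (log2 fold change 2.74 ± 0.45 SE, adjusted p = 9.53e-05). Cxcl10 and Cxcl11, ligands of CXCR3 that are also interferon-inducible, stayed below 10 CPM: Cxcl10 averaged 0.666 ± 0.491 CPM without cytokine and 5.31 ± 3.96 CPM with IL12 (SD, n = 5 each), and Cxcl11 had 2 counts in the controls together and 103 with IL12, a ratio of 48.4 (13.1 to 405), or 77.3 without control library 62 and 78.4 without control library 71. Xcl1, which attracts cross-presenting dendritic cells, averaged 145 ± 77.5 CPM without cytokine and 299 ± 44.4 CPM with IL12 (SD, n = 5 each) (log2 fold change 1.04 ± 0.33 SE, adjusted p = 0.0276), and its groups overlapped. Its call was lost without control library 71, 72 or 75 or IL12 library 72 (adjusted p up to 0.0772).

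Most genes of the killing machinery rose. Of 26 cytotoxic effector genes, 21 were tested, 15 rose and 1 fell, with a median of 0.84. Gzmb, the main granzyme of activated CD8 T cells (ENSMUSG00000015437, chromosome 14, 56258838 to 56262260 in GRCm38), stood at 858, 1026, 805, 1055 and 1053 CPM without cytokine and 2239, 2419, 4594, 5411 and 6084 CPM with IL12 (log2 fold change 2.11 ± 0.42 SE, adjusted p = 8.24e-04). The 5 IL12 libraries were all above the controls, and 62 and 67 lay between the controls and the other 3. Prf1, the gene of the pore-forming perforin, went from 123, 116, 53.8, 53.1 and 90.5 CPM to 212, 201, 211, 193 and 316 CPM (log2 fold change 1.37 ± 0.24 SE, adjusted p = 2.34e-04). Here IL12 libraries 62 and 67 lay close to 71 and 72, with 75 the highest. The controls numbered 62 and 67 were the highest of their group for Prf1, so close levels with IL12 do not mean an equal rise by number. Gzmc, a granzyme of late effector cells, rose from 1.45, 1.54, 0.589, 2.39 and 2.61 CPM to 6.70, 6.30, 8.38, 22.7 and 23.5 CPM (log2 fold change 2.97 ± 0.46 SE, adjusted p = 4.31e-05). Reads of Gzmc may be shared with its near copies in the granzyme cluster. Gzma stood at 1.11, 1.23, 2.24, 3.59 and 5.79 CPM without cytokine and 0.957, 2.33, 9.73, 19.3 and 27.3 CPM with IL12 (log2 fold change 2.10 ± 0.58 SE, adjusted p = 0.0121). Its groups overlapped, and without IL12 library 75 it was not called (adjusted p = 0.0777). With 62 and 67 as the only IL12 libraries its log2 fold change was -0.70 (adjusted p = 0.687). Tnfsf10, which encodes the ligand TRAIL, rose (log2 fold change 2.13 ± 0.23 SE, adjusted p = 3.80e-07), Nkg7 rose by 0.95 ± 0.13, and Rab27a, which docks lytic granules, by 1.08 ± 0.15. The death ligand gene Fasl (0.76 ± 0.23) and the granule proteoglycan gene Srgn (0.39 ± 0.12) were called higher, calls that were lost without control library 72 or IL12 library 72 or 75, for Fasl also without control library 75 and for Srgn without control library 71. The protective serpins Serpinb9 (1.15 ± 0.26) and Serpinb6b (0.84 ± 0.21), which inhibit granzymes, rose as well. Lamp1, a lysosomal membrane protein, was the 1 fall (-0.20 ± 0.06). The list had 2 falls without IL12 library 62 or 67 and 0 without IL12 library 75.

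**Figure D3:**
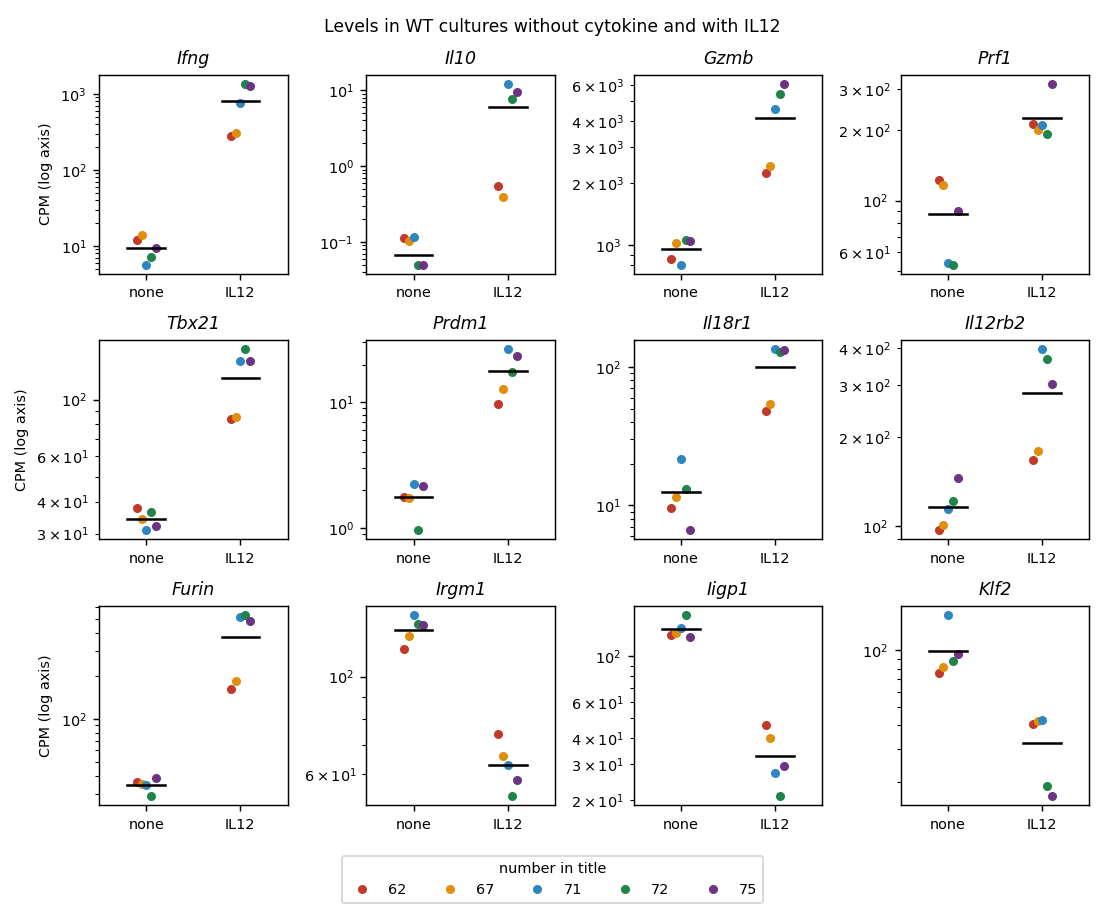
CPM of 12 genes (log axes) in the 5 WT libraries without cytokine and the 5 with IL12, coloured by the number in the title, with the group mean as a bar. Values of 0 are drawn at 0.05. The 9 genes of the cytokine, effector and receptor groups are higher in all IL12 libraries, Irgm1, Iigp1 and Klf2 are lower, and libraries 62 and 67 often lie between the controls and the other 3.

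Of 27 chemokine and homing receptor genes 22 were tested, 3 rose and 1 fell, with a median of 0.27. The share called (18.2%) was near that of all genes tested (18.9%), and 6 rose with the WT groups alone. Cxcr6, a receptor of tissue-resident cells, rose (log2 fold change 1.60 ± 0.32 SE, adjusted p = 8.93e-04), as did Ccr2, from 0.445, 1.03, 0.471, 0.718 and 0.795 CPM to 1.37, 1.36, 4.24, 3.79 and 2.90 CPM (log2 fold change 1.97 ± 0.41 SE, adjusted p = 0.00128). Both were above all controls in each IL12 library. Cxcr3, the usual receptor of type 1 T cells, averaged 2.77 ± 1.81 CPM without cytokine and 3.40 ± 2.34 CPM with IL12 (SD, n = 5 each) (log2 fold change 0.31 ± 0.47, adjusted p = 0.69), with a control library at 5.89 and an IL12 library at 7.51 CPM, both number 71. Ccr7, which guides cells to lymph nodes, averaged 485 ± 97.6 CPM without cytokine and 389.5 ± 62.8 CPM with IL12 (SD, n = 5 each) and was not called (adjusted p = 0.208). S1pr4 fell (-0.67 ± 0.20), a call lost without control library 71 or IL12 library 72 or 75. Without control library 72, 5 receptors were called higher.

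Among 12 tested integrin chains of 17, 2 rose and 2 fell. Itgav, which pairs with several beta chains, rose by 0.55 ± 0.10 and Itgb1 by 0.41 ± 0.10. Itga6, a laminin receptor chain, stood at 139.6, 136, 175, 158 and 145 CPM without cytokine and 106, 105, 58, 34.95 and 34.9 CPM with IL12 (log2 fold change -1.16 ± 0.29 SE, adjusted p = 0.00552), and Itgb7 fell by 1.27 ± 0.32 on the log2 scale. Library 62 was the highest of the IL12 libraries for Itga6, and 72 and 75 were the lowest. Of 33 tested cytokine receptor genes of 36, 11 rose and 3 fell (median 0.09). Tgfbr3, a coreceptor for TGF-beta, rose from 2.78, 4.52, 4.83, 3.71 and 4.88 CPM to 13.4, 14.8, 34.1, 29.9 and 22.8 CPM (log2 fold change 2.47 ± 0.26 SE, adjusted p = 1.54e-07). Il21r rose by 1.01 ± 0.13, and Ifngr2, a chain of the interferon gamma receptor, fell by 1.14 ± 0.24. The IL2 receptor chain Il2ra averaged 814 ± 110 CPM without cytokine and 1298 ± 152 CPM with IL12 (SD, n = 5 each) (0.67 ± 0.24, adjusted p = 0.0496), a call that was lost in the fit without any 1 of these libraries other than IL12 library 62 (adjusted p up to 0.12). Il7r, a receptor chain of long-lived cells, rose (log2 fold change 0.82 ± 0.28 SE, adjusted p = 0.0412), a call lost without any of control libraries 62, 67, 72 and 75 or IL12 libraries 71, 72 and 75 (adjusted p up to 0.139). Il6ra and Il15ra fell. The count of rises was 6 without control library 72 and 7 without control library 62, 67 or 75 or IL12 library 71 or 72.

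Of 22 inhibitory receptors 16 were tested, 1 rose and 1 fell, with a median of 0.02. The share called was 12.5%, against 18.9% of all genes tested. The rises numbered 3 by DESeq2, with no filter on low counts and in females alone, and 0 by limma-voom and without control library 67, 71 or 75 or IL12 library 71, 72 or 75. Pdcd1, which encodes PD-1, averaged 65.3 ± 13.01 CPM without cytokine and 94.9 ± 7.58 CPM with IL12 (SD, n = 5 each) and lay at the threshold (0.54 ± 0.19, adjusted p = 0.0502). Among other settings, Pdcd1 was called higher by DESeq2 (adjusted p = 0.037), with the WT groups alone (adjusted p = 0.0104), in females alone (adjusted p = 0.0269) and without control library 62 (adjusted p = 0.0266). Lag3 averaged 321 ± 20.9 CPM without cytokine and 306 ± 15.6 CPM with IL12 (SD, n = 5 each) (-0.07 ± 0.08, adjusted p = 0.55). Btla fell (-0.47 ± 0.13), and Cd200r1 was called higher at a mean of 2.11 CPM with IL12, a call lost without any of control libraries 62, 67, 71 and 75 or IL12 libraries 71, 72 and 75. Without IL12 library 67, 2 inhibitory receptors were called higher. Of 35 costimulatory receptors and activation genes, 12 rose and 3 fell (median 0.32). The AP-1 gene Jun went from 13.5, 12.03, 14.96, 15.9 and 14.1 CPM to 28.3, 31.8, 80.2, 89.2 and 87.95 CPM (log2 fold change 2.18 ± 0.27 SE, adjusted p = 2.23e-06), Junb rose by 0.96 ± 0.13, and Tnfrsf9, which encodes 4-1BB, by 1.06 ± 0.15. All IL12 libraries were above all controls for these 3 genes. Cd86, a B7 ligand, fell from 6.34, 6.48, 6.24, 7.66 and 7.61 CPM to 2.19, 2.13, 1.25, 2 and 1.45 CPM (log2 fold change -1.93 ± 0.31 SE, adjusted p = 5.50e-05). The 3 falls (Cd86, Slamf6 and Cd226) were down to 1 without IL12 library 71, 72 or 75. NK-type receptors were mostly below the count filter: 10 of 26 were tested, 4 rose (Klre1, Klrc1, Klrk1 and Klrb1b) and 0 fell. Klrc1, a chain of an inhibitory receptor for Qa-1, averaged 4.92 ± 2.62 CPM without cytokine and 11.4 ± 4.003 CPM with IL12 (SD, n = 5 each) (log2 fold change 1.19 ± 0.34 SE, adjusted p = 0.0154), and Klrk1, which encodes NKG2D, rose by 0.50 ± 0.14.

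Apart from Ifng, the largest rises were mostly of genes at low levels without IL12. P2rx3, an ATP-gated ion channel best known from sensory neurons (ENSMUSG00000027071, chromosome 2, 84998583 to 85037462 in GRCm38), stood at 0.111, 0.206, 0.236, 0.120 and 0.454 CPM without cytokine and 11.5, 10.8, 66.9, 67.8 and 103 CPM with IL12 (log2 fold change 7.78 ± 0.76 SE, adjusted p = 5.33e-08). Atp6v0d2, a subunit of the vacuolar proton pump, went from 0.334, 0.206, 0, 0.239 and 0.454 CPM to 9.43, 13.3, 43.6, 56.3 and 109.8 CPM (log2 fold change 7.48 ± 0.80 SE, adjusted p = 2.10e-07). Tnfrsf8, which encodes CD30, a TNF receptor family member of activated lymphocytes, went from 1.78, 1.54, 0.353, 2.15 and 1.70 CPM to 15.99, 23.3, 133, 123 and 159 CPM (log2 fold change 5.90 ± 0.64 SE, adjusted p = 2.81e-07). In all 3 genes libraries 62 and 67 lay well below the other IL12 libraries. Without IL12 library 75 the log2 fold change of Atp6v0d2 was 6.89. Prnp, the prion protein gene, rose from 2.22, 1.75, 2.47, 2.75 and 1.70 CPM to 18.3, 18.6, 75.9, 69.7 and 86.4 CPM (log2 fold change 4.63 ± 0.44 SE, adjusted p = 3.55e-08), with the same order of libraries.

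Several genes had 0 or few counts in the controls, so their fold is a bound or a ratio of counts. Mmp10, a matrix metalloproteinase, had 0 counts in the controls and 427 with IL12, at least 134-fold higher against a floor of 3 counts over the control group (adjusted p = 0.00354). The bound for Mmp10 was 85.6-fold without IL12 library 75. Il23r, the specific chain of the IL23 receptor, was at least 125-fold higher (0 and 398 counts), with 0.957, 1.36, 12.3, 13.6 and 12.4 CPM in the IL12 libraries. Libraries 62 and 67 were far below the other 3. Esm1, a secreted proteoglycan, was at least 100-fold higher (0 and 319 counts), and the chemokine receptor gene Cxcr1 at least 41.7-fold (0 and 133 counts). Myh11, a smooth muscle myosin, had 1 count in the controls and 827 with IL12, a ratio of 778 (exact 95% interval 139 to 30767); that 1 count was in control library 75, and without it Myh11 was at least 208-fold higher. Htra4, a serine protease, had 3 and 209 counts, a ratio of 65.5 (22.1 to 320). Cdh17, a cadherin, rose by 5.97 ± 0.99 on the log2 scale (6.84 without control library 62). Mmp10, Il23r, Esm1, Cdh17, Il10 and Gzma were the 6 called genes of at least 4 CPM that varied most among the IL12 libraries.

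**Figure D4:**
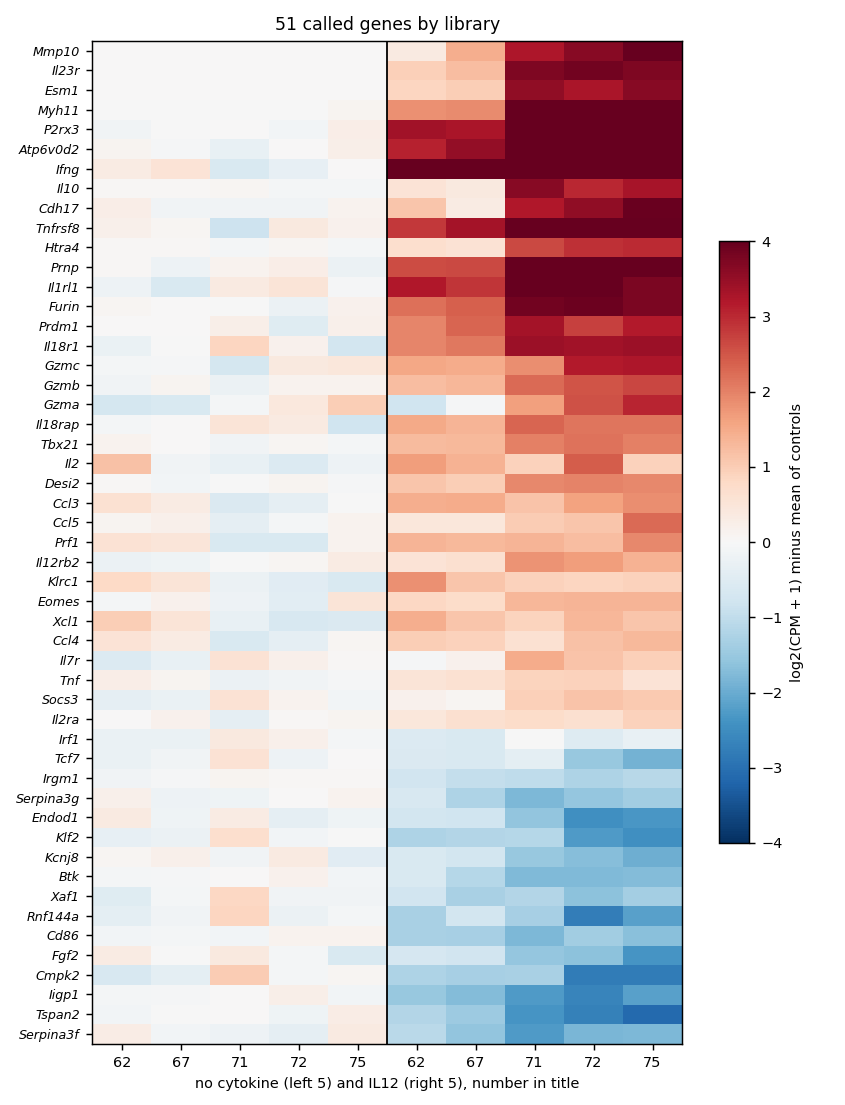
Called genes that are key genes or lead by size or p (51 in all, 35 higher, 16 lower), as log2(CPM + 1) minus the mean of the 5 controls, in each WT library (5 without cytokine left of the line, 5 with IL12 right of it); colours end at ±4. The paler columns among the IL12 libraries are 62 and 67.

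More genes that respond to interferon gamma fell than rose. Of 45 listed, 42 were tested, 19 fell and 2 rose, with a median log2 fold change of -0.39, and in 17 genes all IL12 libraries were below all controls. Over all genes tested, 8.3% were called lower and 5.81% had all IL12 libraries below all controls. Irgm1, a GTPase that defends cells against intracellular microbes (ENSMUSG00000046879, chromosome 11, 48861968 to 48871683 in GRCm38), stood at 115, 124, 138, 132 and 131 CPM without cytokine and 74.2, 65.8, 62.9, 53.5 and 58.2 CPM with IL12 (log2 fold change -1.02 ± 0.09 SE, adjusted p = 2.81e-08). Iigp1, another GTPase of that family, went from 127, 129.8, 138, 159 and 125 CPM to 46.2, 40.02, 27.1, 20.95 and 29.3 CPM (log2 fold change -2.06 ± 0.23 SE, adjusted p = 3.80e-07). The 5 IL12 libraries were below all controls for both genes, with 62 the highest of them. The GTPase genes Irgm2, Igtp, Gbp2, Gbp5, Gbp6, Gbp7, Gbp10, Tgtp1 and Tgtp2 also fell. Reads may be shared between Tgtp1 and Tgtp2 and between Gbp6 and Gbp10, which are near copies. Genes that load peptides for CD8 T cells fell by less: Tap1, the peptide transporter, by 0.55 ± 0.09 and Psmb9, an immunoproteasome subunit, by 0.39 ± 0.09. Serpina3f fell from 11.2, 8.22, 7.66, 6.82 and 11.8 CPM to 3.69, 2.33, 1.06, 1.79 and 1.87 CPM (log2 fold change -2.12 ± 0.35 SE, adjusted p = 9.79e-05), and Serpina3g by 1.32 ± 0.27. Wars, the tryptophan tRNA synthetase, fell by 0.61 ± 0.09. Irf1 stood at 109, 110.1, 175, 153 and 125 CPM without cytokine and 88.96, 86.1, 131, 92.3 and 108 CPM with IL12 (-0.41 ± 0.13, adjusted p = 0.0301). Its groups overlapped, and its call was lost without control library 71 or 72 or IL12 library 62, 67 or 72 (adjusted p up to 0.136). The 2 rises were Cxcl10 and Icam1. In the 10 fits that leave out 1 library, 15 to 19 members fell and 2 or 3 rose, and with 62 and 67 as the only IL12 libraries 8 fell and 0 rose.

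Genes of the type I interferon response followed in part. Of 43 listed, 36 were tested, 12 fell and 2 rose, with a median of -0.53. Trim30a fell by 0.73 ± 0.16 and Ifi27l2a by 1.18 ± 0.27. Cmpk2, a nucleotide kinase, stood at 13.8, 16.7, 44.99, 20.6 and 23.3 CPM without cytokine and 8.75, 8.14, 8.38, 2.32 and 2.28 CPM with IL12 (log2 fold change -2.001 ± 0.48 SE, adjusted p = 0.00435). Control library 71 was the highest for Cmpk2 and for Xaf1, and the call for Xaf1 (-1.69 ± 0.50) was lost without it (adjusted p = 0.073) and without IL12 library 72. The exception was Usp18, which removes ISG15 from proteins and restrains type I interferon receptors. It stood at 6.12, 8.02, 14.4, 10.5 and 7.49 CPM without cytokine and 12.3, 9.59, 59.8, 69.5 and 84.7 CPM with IL12 (log2 fold change 2.35 ± 0.51 SE, adjusted p = 0.00171), and libraries 62 and 67 lay within the range of the controls. The count of falls was 7 without control library 71 or IL12 library 72, and with 62 and 67 as the only IL12 libraries it was 0. Oasl2 was the other rise (1.96 ± 0.63). Its call was lost by DESeq2, by limma-voom and without control library 62, 67, 71 or 75 or IL12 library 72 or 75 (adjusted p up to 0.206). Its log2 fold change was 1.25 without IL12 library 75, 2.55 without control library 72 and -0.47 with 62 and 67 as the only IL12 libraries. A count of 1 rise was found without control library 62, 67, 71 or 75 or IL12 library 72 or 75.

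In the MHC class II pathway 12 of 13 genes were tested, 4 rose and 2 fell. H2-Ab1, a class II beta chain, averaged 1.67 ± 0.534 CPM without cytokine and 5.13 ± 3.43 CPM with IL12 (SD, n = 5 each) (log2 fold change 1.64 ± 0.40 SE, adjusted p = 0.00515). It was raised in libraries 71, 72 and 75 and not in 62 and 67, where its log2 fold change was -0.25. The invariant chain gene Cd74 rose by 0.95 ± 0.25 (not called without IL12 library 72, adjusted p = 0.0592), and Ctss, a protease that trims it, fell by 0.47 ± 0.10. The rises numbered 1 without IL12 library 72 and 2 without control library 62, 67 or 71 or IL12 library 71.

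Genes of naive and central memory cells leaned down. Of 30 listed, 29 were tested, 8 fell and 3 rose, with a median of -0.32. Klf2, a factor that keeps T cells quiescent and circulating, stood at 75.3, 81.2, 154, 88.2 and 95.4 CPM without cytokine and 40.3, 41.96, 42.8, 19.1 and 16.8 CPM with IL12 (log2 fold change -1.62 ± 0.37 SE, adjusted p = 0.00271). Control library 71 was the highest and IL12 libraries 72 and 75 were the lowest. Tcf7, which encodes TCF-1, the factor of naive and stem-like cells, went from 285, 313, 508, 298 and 348 CPM to 227, 225, 260, 120.2 and 90.9 CPM (log2 fold change -0.92 ± 0.30 SE, adjusted p = 0.0312). The groups did not overlap, but without control library 71 or IL12 library 72 or 75 the call was lost (adjusted p up to 0.107). Tdrp (-1.14 ± 0.22), Dapl1 (-1.15 ± 0.23) and Smc4 (-0.66 ± 0.13) also fell, while Lef1, which acts beside TCF-1, rose (0.46 ± 0.15). Without IL12 library 72, 5 members fell, and the rises (Lef1, Il7r and Ramp1) numbered 0 or 1 without control library 62, 67 or 72 or IL12 library 71, 72 or 75. Tspan2, a tetraspanin that was in none of the lists, was among the largest falls, from 55.5, 59.5, 61.6, 53.8 and 74.6 CPM to 26.4, 21.4, 10.9, 8.42 and 6.11 CPM (log2 fold change -2.08 ± 0.27 SE, adjusted p = 4.65e-06). All IL12 libraries were below all controls, and 62 and 67 were the highest of them. Btk, a signalling kinase best known from B cells, fell from 8.12, 8.33, 8.72, 9.81 and 7.83 CPM to 5.19, 3.30, 1.83, 1.79 and 1.87 CPM (log2 fold change -1.64 ± 0.24 SE, adjusted p = 2.32e-05). Rnf144a, Fgf2, Kcnj8 and Endod1 were the other largest falls, at -1.61 to -1.95 on the log2 scale, and the calls for Kcnj8 and Endod1 were lost without IL12 library 71, 72 or 75 (adjusted p up to 0.0819 and 0.0837), for Kcnj8 also without control library 72 and for Endod1 without control library 62 or 71.

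Some proliferation genes fell, each by a small amount. Of 30 S phase genes 11 fell and 2 rose (median -0.14), and of 31 G2 and M phase genes 11 fell and 0 rose (median -0.20). Mcm2, a subunit of the replicative helicase, stood at 432, 431, 413, 440.3 and 437 CPM without cytokine and 383, 382, 346, 291 and 297 CPM with IL12 (log2 fold change -0.34 ± 0.07 SE, adjusted p = 8.41e-04). Its groups did not overlap, with 72 and 75 the lowest. The mitotic kinases Aurkb and Ttk fell by 0.24 ± 0.06 and 0.31 ± 0.08, and the kinesin gene Kif2c by 0.36 ± 0.09. Of each list 6 members fell without control library 71, 5 without IL12 library 72 and 0 with 62 and 67 as the only IL12 libraries. The 2 rises in S phase, Rfc3 and Ccne2, numbered 0 or 1 without control library 71 or 75 or IL12 library 72 or 75.

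Of 31 tested glycolysis and hypoxia genes 6 rose and 1 fell (median 0.11). The share called was 22.6%, against 18.9% of all genes tested. Hk2, which commits glucose to glycolysis, stood at 102, 99.4, 75.5, 90.2 and 106 CPM without cytokine and 175, 179.5, 352, 331 and 273 CPM with IL12 (log2 fold change 1.47 ± 0.27 SE, adjusted p = 3.20e-04). All IL12 libraries were above the controls. The glucose transporter gene Slc2a1 rose by 0.50 ± 0.12. The 1 fall, Pdk1, was a count of 0 without control library 71 or IL12 library 72 or 75, of 2 without IL12 library 67 and of 3 without IL12 library 62. Of 42 oxidative phosphorylation genes 3 rose and 0 fell (median 0.04; edgeR, 8 called higher and 1 lower without IL12 library 62, 6 higher without IL12 library 67, and 1 higher without control library 72 or IL12 library 72 or 75). Of 31 sterol and fatty acid genes 2 rose, Me1 and Insig1, and 1 was called without control library 71 or IL12 library 75. Of 32 tested ATF4 target genes 1 rose (Slc38a2) and 1 fell (Wars), or 2 without IL12 library 62 or 67. The shares called were 7.14% (oxidative phosphorylation), 6.45% (sterol and fatty acid) and 6.25% (ATF4). Each was below the 18.9% of all genes tested. In the endoplasmic reticulum stress and secretion list 9 of 30 rose and 1 fell (median 0.22). Ern1, the sensor IRE1 of that stress, rose (log2 fold change 1.54 ± 0.31 SE, adjusted p = 9.56e-04), and Calr, a chaperone, by 0.34 ± 0.08. Without control library 71, 5 members rose; 2 fell without IL12 library 62 and 3 without IL12 library 67. Of 14 tested BCL2 family genes 4 rose and 0 fell. The survival genes Bcl2l1 and Bcl2l2 rose by 0.68 ± 0.17 and 0.69 ± 0.16, and 2 members were called without IL12 library 72. Bcl2a1b and Bcl2a1d, the other 2, are near copies of each other and may share reads.

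**Figure D5:**
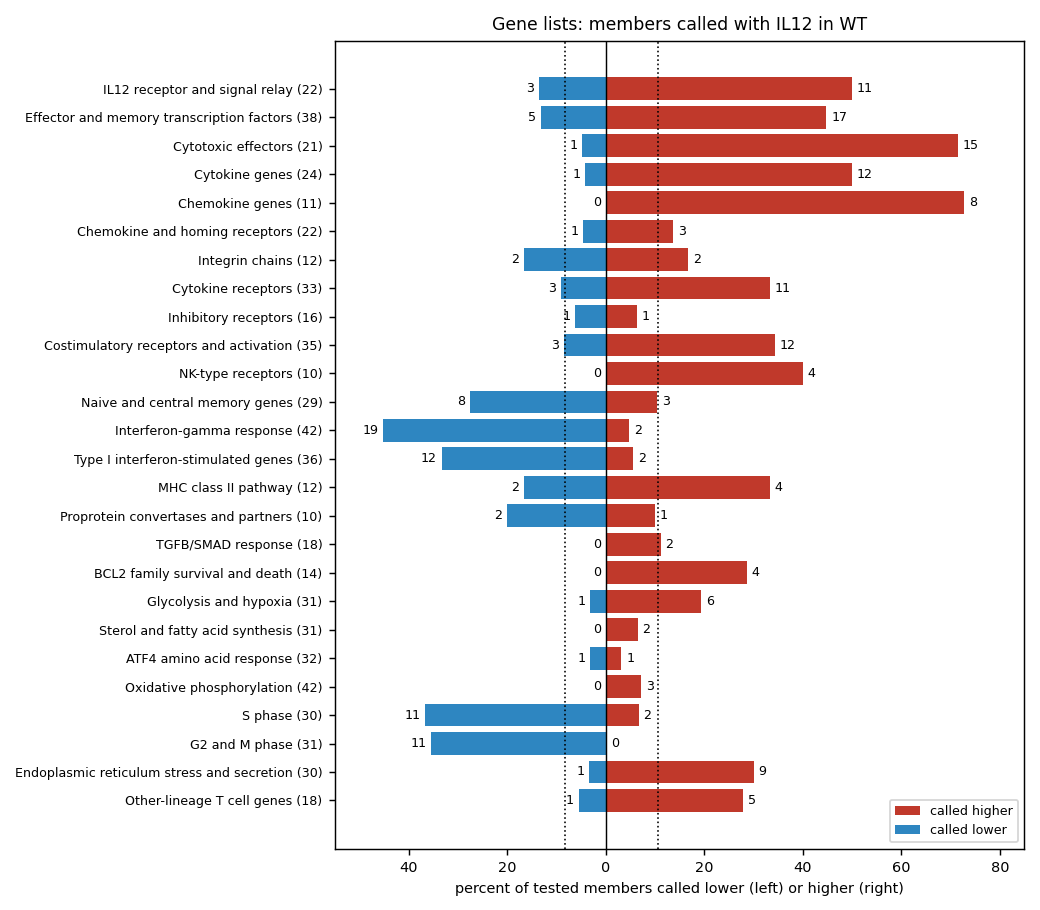
Percent of the tested members of each list (number tested in brackets) that were called higher (right) or lower (left) with IL12 in WT, with the number of genes at each bar. Dotted lines mark the share of all genes tested that was called higher (10.5%) and lower (8.3%). Cytotoxic effectors and chemokine genes reach furthest right, and the interferon gamma response reaches furthest left.

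Furin, the convertase gene that the series deletes, was among the clearest rises. It cleaves precursor proteins, TGF-beta among them, into active forms (ENSMUSG00000030530, chromosome 7, 80388585 to 80405436 in GRCm38). It stood at 36.2, 34.9, 34.3, 28.8 and 38.5 CPM without cytokine and 161, 183, 511, 533 and 485 CPM with IL12 (log2 fold change 3.44 ± 0.32 SE, adjusted p = 2.81e-08). The 5 IL12 libraries were all far above the controls, with 62 and 67 the lowest. Among 10 tested genes of 14 for convertases and their partners it was the 1 that rose. Nrros and Mbtps1 fell by small amounts (-0.28 ± 0.07 and -0.19 ± 0.06), a count of 1 without control library 71 or IL12 library 72. Of 18 tested TGF-beta response genes of 26, 2 rose (Skil by 0.57 ± 0.11 and Smurf1 by 0.66 ± 0.13) and 0 fell. The share called was 11.1%, against 18.9% of all genes tested.

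Of 25 genes of other T cell lineages 18 were tested, 5 rose (Il23r, Cd40lg, Ikzf4, Bcl6 and Rora) and 1 fell (Gata3). Cd40lg, the CD40 ligand, went from 2.78, 0.822, 0.707, 1.68 and 0.908 CPM to 3.28, 3.20, 8.77, 15.3 and 11.8 CPM (log2 fold change 2.62 ± 0.51 SE, adjusted p = 6.05e-04). Libraries 62 and 67 were the lowest of the IL12 libraries. Foxp3, the factor of regulatory T cells, was not called. Without control library 67 or IL12 library 72 or 75, 3 of the list rose, and 0 fell without IL12 library 72 or 75.

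Markers of cells other than CD8 T cells were mostly at or near 0. Of 12 B cell markers 9 were below the filter, and Ms4a1, a B cell surface protein gene, was at most 0.11 CPM in these libraries. Ighm, the constant region of the IgM heavy chain, was the exception, with 590, 589.8, 676, 624 and 609.7 CPM in the controls and 498, 474, 339, 247 and 263 CPM with IL12 (log2 fold change -0.76 ± 0.18 SE, adjusted p = 0.00381). It made up nearly all of the summed B cell marker level, 605.7 to 701 CPM without cytokine and 263 to 512 CPM with IL12. Of 9 NK cell markers Ncr1 and Klrb1c were at most 0.84 and 0.32 CPM, and the list summed to 17.0 to 30.4 CPM without cytokine and 31.1 to 75.1 CPM with IL12. Eomes and Gzma, which CD8 T cells also express, were its 2 rises. Of 17 myeloid and dendritic cell markers Csf1r was at 0 in all 10 libraries and Adgre1 at most 0.36 CPM. That list summed to 22.02 to 38.4 CPM without cytokine and 60.7 to 232 CPM with IL12, nearly all of it Batf3. Mpeg1, at most 1.02 CPM, fell. Stromal and endothelial markers summed to 50.7 to 78.9 and 14.7 to 40.9 CPM, nearly all of it Pecam1, which fell (log2 fold change -1.11 ± 0.35 SE, adjusted p = 0.0253), a call lost without control library 71 or 75 or IL12 library 72 or 75 (adjusted p up to 0.0865). Of 3 CD4 T cell markers 1 rose, Cd40lg, and of 4 tested gamma delta T cell markers and 1 tested erythroid and platelet marker 0 were called. The CD4 list summed to 14.1 to 21.1 CPM without cytokine and 19.9 to 33.6 CPM with IL12. The gamma delta list summed to 7.61 to 19.5 CPM without cytokine and 10.4 to 24.3 CPM with IL12. The part of other cell types in Ighm, Pecam1 and the CD4 and gamma delta lists was not tested.

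Ribosomal protein genes took 9.92 ± 1.34% of the counts with IL12 and 10.1 ± 0.45% without (SD, n = 5 each; exact permutation test, two-sided, p = 0.817, with 0.00794 the smallest p possible). With IL12 the share was 8.57, 8.98 and 9.35% in libraries 62, 67 and 71 and 11.1 and 11.6% in 72 and 75. Mitochondrial transcripts took 1.19 ± 0.34% with IL12 and 0.898 ± 0.22% without (exact permutation test, p = 0.143). The part of the ribosomal share in the spread between IL12 libraries was not tested.

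The same contrast in cultures labelled Furin KO asks whether the response differs by genotype. Without cytokine the Furin count did not set the genotypes apart: it stood at 32.5, 32.6, 32.6, 31.5 and 33.9 CPM in the KO libraries, within the WT range of 28.8 to 38.5 CPM. With IL12 it stood at 161, 120, 132, 196 and 464 CPM in the KO libraries, against 161 to 533 CPM in WT. Most of these KO libraries lay low in the WT range or below it. The difference in the response of Furin was not called (log2 fold change 3.44 in WT and 2.72 in KO, adjusted p = 0.997 by edgeR). Which part of the gene is deleted is not given in the sources used here, so the count of the whole gene does not check the label. By edgeR, 0 of 11718 genes were called for the difference (0%), 513 had an unadjusted p below 0.05, the smallest adjusted p was 0.997, and DESeq2 and limma-voom called 0. The genes with the smallest p for the difference were Gnaq, Gm7776, Gm9493, Chchd7, Tuba1c, Rpl27, 2410015M20Rik and Isoc2a. Without WT libraries 62 and 67 with IL12, 160 genes were called for the difference. These libraries showed the smallest change with IL12 in WT, and no KO library was left out in that fit. That count is therefore in part set by the choice of libraries and does not show a difference by genotype. In KO cultures 1668 genes were called with IL12 (14.2%). Of these, 1102 were also called in the same direction in WT, which is 49.9% of the WT calls and 66.1% of the KO calls. Ifng changed by 6.37 in WT and 5.43 in KO on the log2 scale, Gzmb by 2.11 and 2.38, Tbx21 by 1.83 and 1.62, and Irgm1 by -1.02 and -0.97. Atp6v0d2 (7.48 and 4.90) and Prnp (4.63 and 3.04) had larger values in WT, with no call for the difference.

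TGFB1 in WT was set against the same 5 control libraries as IL12, so the values are given side by side only. Gzmb changed by 2.11 with IL12 and -4.17 with TGFB1 on the log2 scale, Prf1 by 1.37 and -1.61, and Eomes by 1.16 and -2.18. Tcf7 changed by -0.92 and 1.34 and Tspan2 by -2.08 and 1.55. Furin was called higher with both (3.44 and 1.23), as were Il18r1 (3.00 and 1.73) and Prnp (4.63 and 2.34). Ifng was called with IL12 (6.37), and its value with TGFB1 was 0.29 (adjusted p = 0.691). Il10 was not called with TGFB1 (adjusted p = 0.965).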

How the data were processed

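RNA-seq measured gene expression in 30 mouse CD8 T cell cultures, 10 of which enter the comparison here. The deposited table holds raw whole-number read counts per Ensembl gene. The tools named in the submitters' processing notes are STAR, Trim Galore, FastQC and DESeq2 1.24.0, with GRCm38 as the build, and per the labels' protocols the library kit is directional after poly(A) purification. No source used here names the counting tool, the annotation release or whether strand was used in counting, so antisense partners and near-identical copies may share reads. Symbols and coordinates come from GENCODE vM21 by Ensembl identifier.

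Genes were kept by filterByExpr (minimum count 10), which left 11718 of 55573 genes with 99.9% of the counts. A model with 6 group means was fitted to all 30 libraries by edgeR 4.0.16 quasi-likelihood in R 4.3.3 with TMM factors, and tested two-sided with Benjamini-Hochberg adjustment over all genes tested. The biological coefficient of variation was 14.3%. The SE of a log2 fold change was taken as its absolute value divided by the square root of the quasi-likelihood F statistic. It is therefore approximate and adds nothing to the p-value of the same test. CPM use the TMM factors, and principal components use log2 CPM with a prior count of 1. In the controls, 3 counts over the group correspond to 0.0676 CPM. Alternatives were other factors and filters, a minimum fold change, DESeq2 1.42.0, limma-voom (limma 3.58.1), a replicate block, thinning and leaving out libraries.

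Genes named are 40 key genes, the 12 largest rises and falls of at least 4 CPM, the 8 smallest p, the 3 leading called members of each of 35 lists, the 6 most variable with IL12 and the 8 smallest p of the genotype difference. Some genes that meet these rules are not reported here. Further list members were named after their values were seen. The comparison, the lists and the key genes were chosen with earlier results of these data known.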

Additional observations from a re-analysis of the deposited data

Results flagged for a closer look

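The values of 145 named genes and 2 shares of counts, with and without IL12, gave 294 groups of 5 libraries. In 24 of the 294 groups 1 library had a gap to the nearest library, relative to the range, above the critical value of 0.71. That value flags about 1 group in 20 by chance if the values are normally distributed, which was not checked for these CPM. The named genes were also picked from these data, so the 24 are a description. The control library numbered 71 held 12 of the 24 and stood above the other 4 controls in each. There Cxcr3 was at 5.889 CPM, Itgae at 7.302, Xaf1 at 11.07 and Rnf144a at 28.15. Dapl1 was at 102.1 CPM in that library, Kif2c at 106.9, Ly6c2 at 110.2, Klf2 at 154.4 and Cox6c at 167.5. S1pr4 was at 217 CPM, Itgb7 at 458.5 and Tcf7 at 507.7, the last against 285.4 to 347.6 CPM in the other controls. The IL12 library of the same number was the highest of its group for Cxcr3 (7.514 CPM) and Ly6c2 (94.89 CPM).

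IL12 library 75 was far above the other IL12 libraries for Prf1 (316.4 CPM against 192.6 to 211.8), Irf8 (335.3 CPM), Ccl5 (22.9 CPM) and Psmb9 (208.1 CPM), and below them for Dapl1 (25.59 CPM against 37.96 to 42.36). IL12 library 62 was the highest for Klrc1, at 18.45 CPM against 8.947 to 10.85. Among the controls, library 62 was the highest for Il2 (5.116 CPM). Library 72 was the highest for Batf3 (33.38 CPM) and the lowest for Aurkb (144.2 CPM), and library 75 held the 1 count of Myh11 (0.1135 CPM).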

How the results depend on the processing

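The count of 2209 genes called with IL12 in WT was 1854 to 2455 with other scaling factors, other filters, DESeq2, limma-voom, females alone or counts thinned to the smallest total, and 1556 with the WT control and IL12 groups alone. With a minimum fold change of 1.5 built into the test it was 264 (239 higher, 25 lower). Leaving out 1 library gave 1324 to 2727 calls, 818 to 1469 higher and 506 to 1258 lower. Without IL12 libraries 72 and 75 there were 755 calls (501 higher, 254 lower), and without 62 and 67 there were 3575 (1936 and 1639), with 160 genes called for the difference from KO. The fit without 62 and 67 left out the WT libraries of smallest change and no KO library, so its count for the difference is in part set by that choice. With 62 and 67 as the only IL12 libraries, a setting chosen after seeing the data, there were 169 calls (119 and 50). The cause of these shifts was not tested. In the other fits run, the difference from KO had 0 calls (edgeR, DESeq2 and limma-voom).

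With the title number as a replicate block 2801 genes were called (1469 higher, 1332 lower), and 1868 with the block and the groups alone. Deviations of same-numbered libraries correlated at r = -0.03 to 0.38 over genes, and 1 of the 5 correlations was below 0.1. Of the IL12 libraries 4 of 5 correlated best with the control of their own number, and so did 4 of 5 controls with the IL12 libraries. The fit without the block was the planned main fit, with the block as an alternative. The labels do not say what a number marks, and whether the numbers mark a shared source cannot be settled here. With the block Pdcd1 (adjusted p = 0.0368) and Irf8 (adjusted p = 0.00676) were called higher by edgeR, inhibitory receptors had 4 rises and type I interferon genes 20 falls.

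Among the lists, S phase genes had 6 falls with no filter on low counts or with the groups alone, and MHC class II genes had 1 rise by limma-voom or with the groups alone. Of the alternatives for single named genes, 3199 kept the direction and the side of the threshold, 375 lost the call, 14 gained it and 17 changed sign. Pdcd1 (adjusted p = 0.0266) and Irf8 (adjusted p = 0.0341) were called higher by edgeR without control library 62. Stat4, which was not called, had a log2 fold change of 0.0171 in females alone, 0.0132 without IL12 libraries 72 and 75, 0.0607 without 62 and 67, and -0.0948 to 0.0696 without 1 library. Cxcr3 ranged from -0.22 to 0.78, Itgae from -0.53 to 0.0018 and Ly6c2 from -0.45 to 0.0923 without 1 library. With 62 and 67 as the only IL12 libraries the signs changed for Cxcr3 (-0.0079), Gzma (-0.70), Socs1 (-0.10), Cd200r1 (-0.29), H2-Ab1 (-0.25), Cox6c (-0.0191) and Oasl2 (-0.47). In that fit they also changed for Chchd7 (-0.0363), Gm9493 (-0.597), Gm7776 (-0.197), Rpl27 (-0.194) and Isoc2a (-0.0125). These genes were named for the genotype difference, and the 17 above do not include them. The ribosomal share with IL12 minus without was -0.561 to 0.186 percentage points without 1 library (0.0843 without IL12 library 67). At 7306151 or more counts per library, a gene with 3 or fewer counts over the control group gives only a bound or a wide ratio.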
